A study of Mus musculus with 8 samples.

Results

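The genes described here encode the TGF-beta ligands (Tgfb1, Tgfb2, Tgfb3), their receptors (Tgfbr1, Tgfbr2, Tgfbr3) and the latent TGF-beta binding proteins (Ltbp1, Ltbp2, Ltbp3, Ltbp4). They were chosen by symbol, and all 10 were among the 24982 genes of the count table. RNA sequencing was done on cultured tail tendon fibroblasts of C57Bl/6 mice in 8 libraries. The 4 Scx-positive libraries (genotype Scx+, numbers 2, 3, 5 and 6) kept Scx, the gene of the tendon transcription factor scleraxis, and the 4 Scx-deleted libraries (genotype Scx-, numbers 2, 3, 4 and 5) had lost it. Every library of both groups came from cells given 4-hydroxytamoxifen (4HT), so no comparison separates the effect of that drug. The sources used here do not give the driver of the deletion, the deleted part of Scx, the animals' age, or how many animals or cultures were used. The study's question was which mRNAs differ between these cells with and without Scx.

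TGF-beta is made as a precursor whose propeptide stays wrapped around the mature growth factor and keeps it inactive. Latent TGF-beta binding proteins hold this latent complex and tether it to the matrix, from which integrins, proteases and other factors release it. The free ligand joins the type II receptor Tgfbr2 with the type I receptor Tgfbr1, which phosphorylates Smad2 and Smad3, and the co-receptor betaglycan (Tgfbr3) presents ligand, Tgfb2 above all. In tendon, TGF-beta signalling is needed for the recruitment and maintenance of tendon cells, and it induces Scx.

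Gene counts per library ranged from 17343228 to 25180790. Scx stood at 7.92 ± 1.52 CPM (the usual unit of gene counts scaled to the library total, here with TMM factors) in Scx-positive and at 0.112 ± 0.0461 CPM in Scx-deleted libraries (SD, n = 4 each), as the labels state. Of the 8 tendon markers Scx, Tnmd, Mkx, Thbs4, Col1a1, Col1a2, Dcn and Fmod, 7 were called as lower and 0 as higher. Scx, the deleted gene, is among these 7 by design. Of all tested genes 14.5% were called as lower. Apart from Scx, each had a mean above 1 CPM in both groups. Tnmd had means of 6.93 CPM with Scx and 2.63 CPM without it, and Mkx of 26.0 and 26.1 CPM. The summed level of the 8, mostly Col1a1 and Col1a2, was 7727 to 9849 CPM in Scx-positive and 5786 to 6463 CPM in Scx-deleted libraries. Of 8 leukocyte markers, Ptprc, Adgre1, Itgam and Tyrobp had means under 1 CPM, and the summed level was 20.1 to 22.9 against 23.2 to 26.8 CPM. These sums did not overlap, and most of each was Cd14, with means of 14.3 and 15.1 CPM. Cd68 had 3.05 and 4.64, Csf1r 1.80 and 2.97, and Lyz2 1.57 and 1.40 CPM. Of 4 tested leukocyte markers 2 were called as higher and 0 as lower. Of 6 endothelial markers, Pecam1, Emcn and Vwf were under 1 CPM, and the sum was 68.3 to 86.4 against 49.5 to 54.1 CPM. Nearly all of that sum was Tek, with means of 74.3 and 46.6 CPM, while Kdr (2.18 and 3.07 CPM) and Cdh5 (1.45 and 1.65 CPM) were low in both groups. Of the endothelial markers 1 was called as lower and 1 as higher. The muscle markers Myod1, Myf5 and Pax7 had 0 counts. The 6 markers of tendon sheath and paratenon summed to 874 to 1050 CPM with Scx and 837 to 871 CPM without it, with no overlap, and 4 of them were called as lower. Among these, Pi16 had means of 13.3 and 2.56 CPM. Sums of 7 mural markers (2006 to 2400 against 2116 to 2285 CPM) overlapped between the groups, while those of 6 fat markers (188 to 211 against 218 to 248 CPM) and of 6 cartilage markers (28.4 to 30.4 against 30.6 to 34.4 CPM) did not. Most of the mural sum was Acta2, with means of 1447 and 1308 CPM. Pdgfrb had 428 and 503, Cspg4 271 and 365, and Rgs5 1.29 and 0.668 CPM. Of 6 tested mural markers 2 were called as higher and 1 as lower. Calls were 3 higher and 0 lower for fat, and 2 and 0 for cartilage. Of all tested genes 14.0% were called as higher. The part of these cell type markers in the results below was not tested.

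The ligand genes moved apart: Tgfb1 was higher and Tgfb2 lower without Scx, and Tgfb3, the most abundant of the ligands, did not pass the test. Of the 10 genes, all of which passed the filter on low counts, 4 were called at an adjusted p under 0.05, namely Tgfb1 as higher and Tgfb2, Ltbp2 and Ltbp4 as lower. The background was high: 28.5% of 13125 tested genes were called, 14.0% as higher and 14.5% as lower. The libraries of the groups did not overlap for Tgfb1, which lay higher, and for Tgfb2, Tgfbr2, Ltbp1 and Ltbp2, which lay lower. Over all tested genes 14.8% lay fully higher, 14.3% fully lower and 29.1% either way. The median log2 change was -0.10 over the 10 genes and -0.01 over all tested genes. In bulk RNA, fewer cells expressing a gene and less RNA per cell cannot be told apart.

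**Figure D1:**
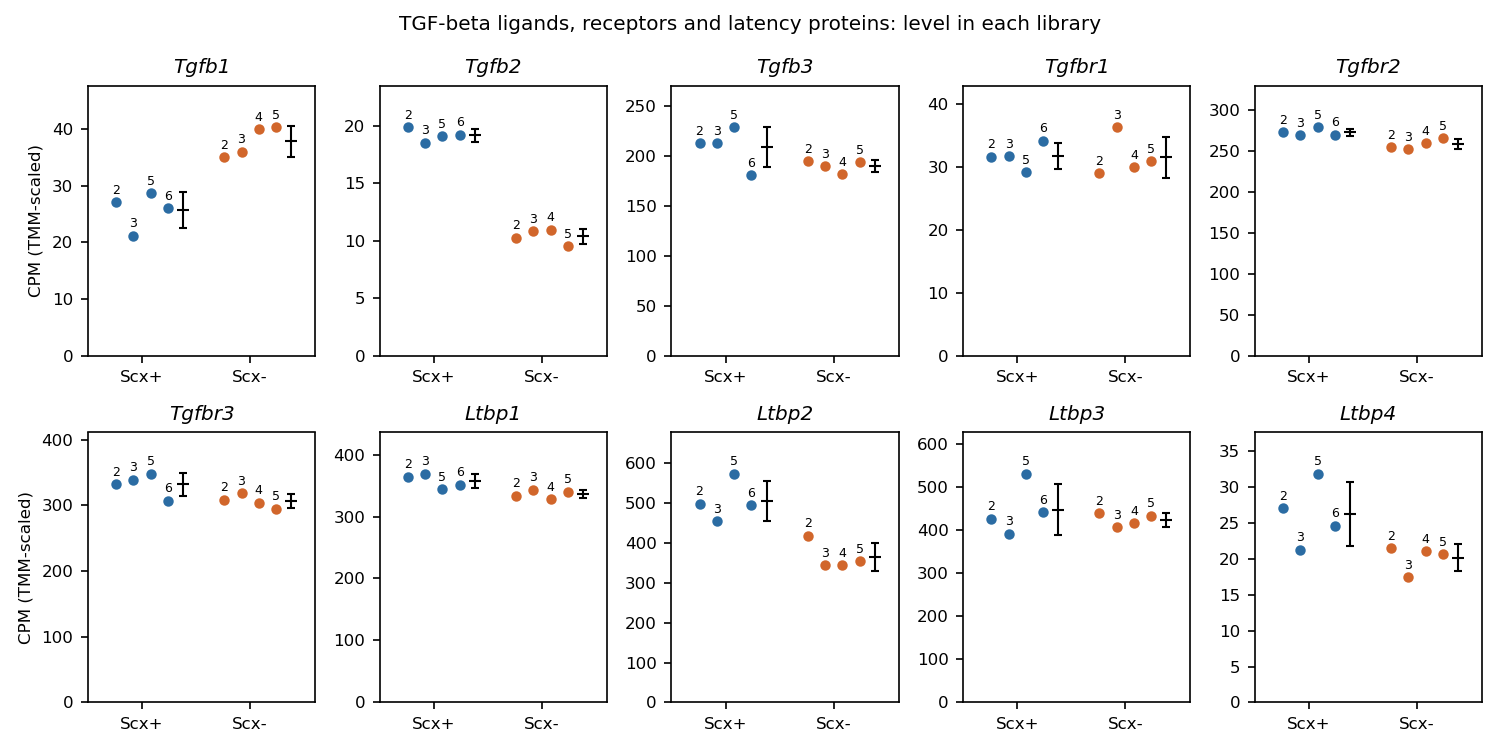
TMM-scaled CPM (y axis, from 0) of each gene in each library, marked with the library's number, with the mean and SD of each group beside the points (n = 4 each; Scx+ is Scx-positive and Scx- is Scx-deleted). The groups lie fully apart for Tgfb1, Tgfb2, Tgfbr2, Ltbp1 and Ltbp2.

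Tgfb2 had the largest change of the set. Its level in Scx-positive libraries 2, 3, 5 and 6 was 19.9, 18.5, 19.1 and 19.2 CPM, and in Scx-deleted libraries 2, 3, 4 and 5 it was 10.3, 10.9, 10.97 and 9.54 CPM. Every Scx-deleted library was below every Scx-positive one, and the spread inside each group was small. The log2 change was -0.89 ± 0.07 (SE), a fall of the mean from 19.2 ± 0.557 to 10.4 ± 0.657 CPM (SD, n = 4 each). The adjusted p (edgeR, quasi-likelihood, Benjamini-Hochberg over all tested genes) was 3.07e-07. Among the 13125 genes, 154 called as lower, Tgfb2 included, had a fall at least as large. Tgfb2 (ENSMUSG00000039239.14) has 7 exons in its longest coding transcript and spans 83.2 kb on the minus strand of chromosome 1, from 186622792 to 186705989 of GRCm38. An annotated antisense transcript, Gm29491, overlaps its exons, and whether the counting used strand is not known from the sources used here.

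Tgfb1 went the other way. Scx-positive libraries 2, 3, 5 and 6 had 27.1, 21.2, 28.6 and 26.0 CPM, and Scx-deleted libraries 2, 3, 4 and 5 had 35.03, 36.0, 40.0 and 40.3 CPM. The groups did not overlap, and Scx-positive library 3 was the lowest of all. The rise was 0.55 ± 0.08 (SE) on the log2 scale, or 1.46-fold, with an adjusted p of 0.000104. Of all tested genes, 311 called as higher, Tgfb1 included, rose by at least as much. Tgfb1 (ENSMUSG00000002603.15) lies on the plus strand of chromosome 7 from 25687002 to 25705077, and no other annotated gene overlaps it.

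Tgfb3 was far more abundant than its relatives. Its level was 213, 213, 229 and 181 CPM in Scx-positive libraries 2, 3, 5 and 6 and 195, 190, 182 and 193 CPM in Scx-deleted libraries 2, 3, 4 and 5. Scx-positive library 6 was the lowest of all 8 and the other Scx-positive libraries were the highest, so the groups overlapped. The log2 difference of -0.14 ± 0.06 (SE) did not pass the test (edgeR, adjusted p = 0.0978), and without Scx-positive replicate 6 it was -0.20 with an adjusted p of 0.00557.

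The balance between ligands can be read inside each library, where no scaling between libraries enters. Tgfb1 had 1.14 to 1.497 times as many counts as Tgfb2 in the Scx-positive libraries and 3.31 to 4.23 times as many in the Scx-deleted libraries, with means of 1.34 ± 0.146 and 3.65 ± 0.409 (SD, n = 4 each). Tgfb3 had 6.93 to 10.1 times as many counts as Tgfb1 with Scx and 4.55 to 5.56 times as many without it. Neither ratio overlapped between the groups. Per kilobase of annotated exon, Tgfb3 made up 87.9% ± 1.33 of the ligand transcripts in Scx-positive and 85.8% ± 0.979 in Scx-deleted libraries, Tgfb1 7.31% ± 0.986 and 11.5% ± 0.916, and Tgfb2 4.75% ± 0.454 and 2.75% ± 0.228 (SD, n = 4 each). The share of Tgfb1 depends on the length used: with the longest annotated transcript of each gene it was 13.3% ± 1.68 and 20.2% ± 1.45. The summed ligand level per kilobase was 61.9 to 76.6 CPM per kb in Scx-positive and 63.6 to 66.8 CPM per kb in Scx-deleted libraries, so these sums overlapped. A sum of transcripts says nothing of the amount of ligand protein or of its activation.

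**Figure D2:**
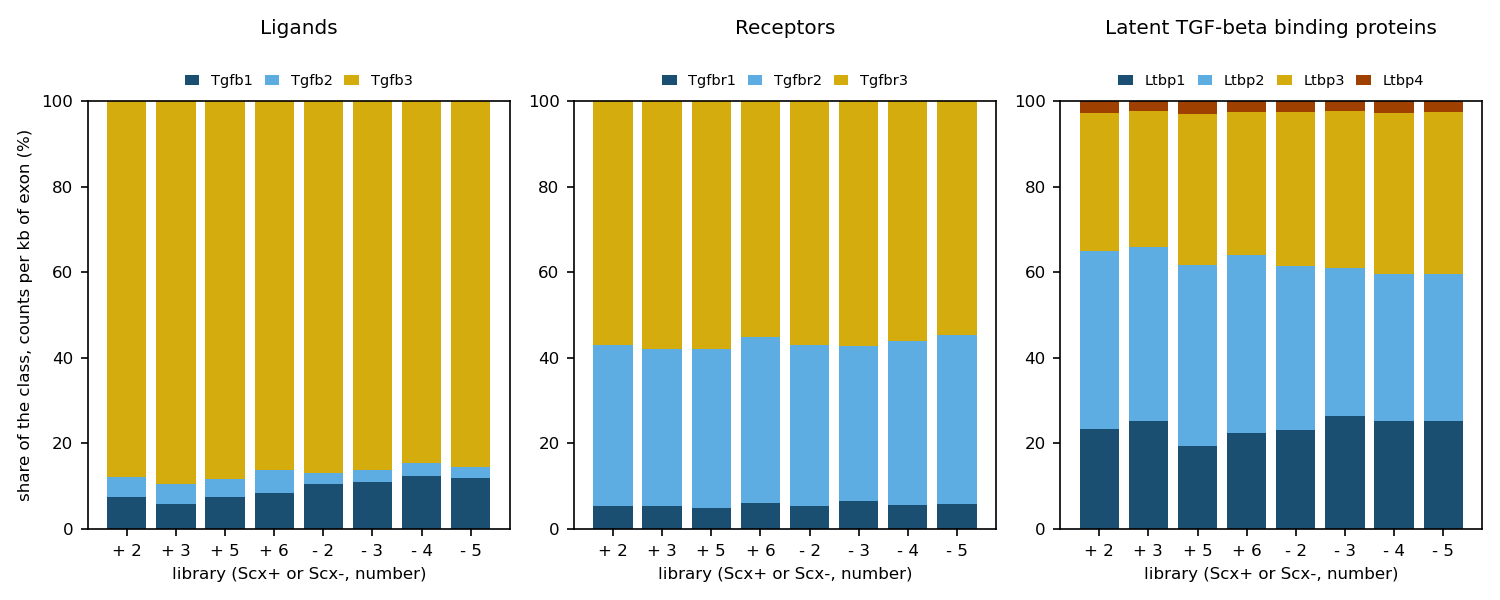
Share of each gene in the counts per kilobase of annotated exon of its class (y axis, percent), one bar per library (+ is Scx-positive, - is Scx-deleted, with the library's number). Tgfb3 fills most of every ligand bar, the Tgfb1 segment is larger and the Tgfb2 segment smaller in each of the 4 Scx-deleted libraries, and the Ltbp2 segment is smaller there too.

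The promoters of the genes with the largest changes are shown because scleraxis belongs to the basic helix-loop-helix factors, a family that binds the E-box CANNTG. The sequences are RefSeq's for GRCm38.p6, read 5′ to 3′ on the gene's strand up to the last base before the first exon, with E-boxes in capitals. They cover chr1:186705990-186706239 on the minus strand for Tgfb2, chr7:25686752-25687001 on the plus strand for Tgfb1, and chr12:84876533-84876741 on the minus strand for Ltbp2, whose window was shortened to leave out an annotated exon.
Tgfb2: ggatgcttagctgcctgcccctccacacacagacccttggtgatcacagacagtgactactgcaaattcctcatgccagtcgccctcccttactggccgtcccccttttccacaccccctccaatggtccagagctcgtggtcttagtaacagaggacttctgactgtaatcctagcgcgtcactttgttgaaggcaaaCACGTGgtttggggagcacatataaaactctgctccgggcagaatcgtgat
Tgfb1: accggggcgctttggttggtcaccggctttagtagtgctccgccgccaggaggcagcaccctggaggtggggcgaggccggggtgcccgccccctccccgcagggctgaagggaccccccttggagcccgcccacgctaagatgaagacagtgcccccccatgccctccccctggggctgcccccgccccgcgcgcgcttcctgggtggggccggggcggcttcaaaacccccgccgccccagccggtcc
Ltbp2: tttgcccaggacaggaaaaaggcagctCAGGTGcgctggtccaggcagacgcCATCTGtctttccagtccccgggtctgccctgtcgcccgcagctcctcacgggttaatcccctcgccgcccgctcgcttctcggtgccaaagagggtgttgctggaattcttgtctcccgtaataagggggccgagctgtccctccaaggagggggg
The Tgfb2 stretch holds 1 E-box, CACGTG, which begins 51 bases before the start site, the Ltbp2 stretch holds 2 (CAGGTG and CATCTG), and the Tgfb1 stretch holds 0. E-boxes are common: 66.2% of 32851 RefSeq windows of 250 bases before a start site hold at least 1 (CANNTG reads the same on both strands). The RefSeq table held 12 such windows for 8 of the 10 genes, and 8 of these 12 had an E-box. The motif CAGACA, the core of a Smad-binding element, was searched on both strands and found in 3 of the 12 windows, that of Tgfb2 and 1 each of Tgfbr1 and Ltbp1, against 17.1% of all windows. These matches are letters in a window, not binding sites, and no match says nothing of a factor's binding elsewhere.

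The receptor genes differed little, and 0 of 3 passed edgeR's test (2 of them, Tgfbr2 and Tgfbr3, had an unadjusted p under 0.05). Tgfbr1, the type I receptor kinase, was at 31.7, 31.8, 29.2 and 34.2 CPM in Scx-positive libraries 2, 3, 5 and 6 and at 29.1, 36.3, 30.0 and 31.0 CPM in Scx-deleted libraries 2, 3, 4 and 5. The groups overlapped throughout, and the log2 difference was 0.00 ± 0.07 (SE). Tgfbr2, the type II receptor that binds ligand, was at 269 to 279 CPM with Scx and 252 to 266 CPM without it. These ranges did not overlap, but the difference was small, at -0.08 ± 0.04 (SE) on the log2 scale with an adjusted p of 0.119. Betaglycan, encoded by Tgfbr3, was at 307 to 348 and 295 to 319 CPM, with a log2 difference of -0.11 ± 0.04 (SE) and an adjusted p of 0.0685. With upper-quartile scaling Tgfbr2 had an adjusted p of 0.0444 and Tgfbr3 of 0.0299, and Tgfbr3 had 0.0212 without Scx-positive replicate 6. Per kilobase, Tgfbr3 made up 57.0% ± 1.32 of the receptor transcripts with Scx and 56.3% ± 1.11 without it, Tgfbr2 37.5% ± 0.860 and 37.9% ± 1.35, and Tgfbr1 5.48% ± 0.525 and 5.81% ± 0.515 (SD, n = 4 each). Differences between the groups were thus within 1 SD for each receptor share.

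Of the latency proteins, Ltbp2 and Ltbp4 fell while Ltbp1 and Ltbp3 did not pass the test. Ltbp2, a fibrillin-binding member of the family that does not bind latent TGF-beta itself, was at 499, 456, 574 and 496 CPM in Scx-positive libraries 2, 3, 5 and 6 and at 419, 344, 344 and 355 CPM in Scx-deleted libraries 2, 3, 4 and 5. The groups did not overlap, and Scx-deleted library 2 stood above the other 3 of its group. The log2 difference of -0.47 ± 0.07 (SE) had an adjusted p of 0.000129. Ltbp2 lies on the minus strand of chromosome 12 from 84783212 to 84876532. The antisense gene D030025P21Rik overlaps its exons and went from 2.74 ± 0.267 to 1.79 ± 0.240 CPM (SD, n = 4 each), also called as lower (edgeR, adjusted p = 0.00540).

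Ltbp4, which is required for elastic fibre assembly and binds latent TGF-beta weakly, was at 27.1, 21.3, 31.9 and 24.6 CPM in the Scx-positive libraries and at 21.5, 17.4, 21.1 and 20.6 CPM in the Scx-deleted libraries, in the order given above. Scx-positive library 3 lay below Scx-deleted library 2, so the groups overlapped. The log2 difference of -0.39 ± 0.10 (SE) had an adjusted p of 0.0109. It was -0.27 without Scx-positive replicate 5, the highest library, and -0.24 after an offset for GC content and transcript length, and it passed the test in both cases.

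Ltbp1, the most studied carrier of the latent complex, ranged from 344 to 369 CPM with Scx and from 328 to 343 CPM without it. The groups were just apart, and the log2 difference of -0.09 ± 0.04 (SE) had an adjusted p of 0.106. Leaving out Scx-positive replicate 5 gave Ltbp1 an adjusted p of 0.0323, and upper-quartile scaling gave 0.0419. Its gene has separate promoters for a long and a short form, and the gene counts do not tell these forms apart. Ltbp3, which also carries latent TGF-beta, was at 427, 392, 531 and 441 CPM in Scx-positive and 440, 406, 416 and 434 CPM in Scx-deleted libraries. Only Scx-positive library 5 stood clear of the rest. The log2 difference was -0.08 ± 0.07 (SE), and it was 0.02 without that library.

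Within the class, Ltbp2 made up 41.5% ± 0.657 of the latency protein transcripts per kilobase with Scx and 35.4% ± 1.84 without it, and Ltbp3 33.1% ± 1.63 and 37.1% ± 0.811 (SD, n = 4 each). Ltbp2 thus ranked first in the class in each Scx-positive library. The order depends on the length: with the longest transcript Ltbp3 held 36.9% ± 1.91 and Ltbp2 35.3% ± 0.654 in Scx-positive libraries, and with the median length of the coding transcripts Ltbp3 held 60.1% ± 1.76 and Ltbp2 25.5% ± 0.248. In Scx-deleted libraries the median coding length gave 64.2% ± 0.832 for Ltbp3 and 20.8% ± 1.247 for Ltbp2 (SD, n = 4 each). Inside a library, Ltbp2 had 1.23 to 1.67 times the counts of Ltbp1 with Scx and 1.003 to 1.26 times without it, which overlapped.

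On the scale of CPM per kilobase of annotated exon, the 10 genes fell into a high and a low tier. In Scx-positive libraries Ltbp2 (61.8 ± 6.06) and Tgfb3 (61.7 ± 5.98) were level, followed by Tgfbr3 (50.7 ± 2.69) and Ltbp3 (49.4 ± 6.54), and then by Ltbp1 (33.4 ± 1.09) and Tgfbr2 (33.3 ± 0.537), all as CPM per kb (SD, n = 4). Neighbours within each of these pairs did not differ beyond their spread. The low tier held Tgfb1 at 5.11 ± 0.637, Tgfbr1 at 4.85 ± 0.315, Ltbp4 at 4.06 ± 0.689 and Tgfb2 at 3.31 ± 0.0962 CPM per kb, of which Tgfb1 and Tgfbr1 did not differ beyond their spread. In Scx-deleted libraries Tgfb3 was first at 56.2 ± 1.73, Ltbp2 stood at 44.7 ± 4.38, Tgfb1 led the low tier at 7.50 ± 0.538, and Tgfb2 was last at 1.80 ± 0.113 CPM per kb. This order holds for the union of exons only. With the longest transcript Ltbp3 came above Tgfb3, at 78.2 ± 10.3 against 61.7 ± 5.98 CPM per kb in Scx-positive and 74.0 ± 2.70 against 56.2 ± 1.73 CPM per kb in Scx-deleted libraries. With the median coding length Ltbp3 was at 323 ± 42.7 and 306 ± 11.1 CPM per kb in the same groups.

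The authors' deposited table gave log2 fold changes close to these, though its mean per gene exceeded that of the deposited counts by a factor of 1.26 in the median. It listed Tgfb1 at 0.57, Tgfb2 at -0.83, Ltbp2 at -0.50 and Ltbp4 at -0.36 in the authors' deposited table's own fit. At an adjusted p under 0.05 the authors' deposited table called 8 of the 10 genes, against 29.2% of its 14511 genes. The additional ones in the authors' deposited table were Tgfb3 at -0.17 (adjusted p = 0.0136), Tgfbr2 at -0.09 (0.0229), Tgfbr3 at -0.13 (0.00818) and Ltbp1 at -0.09 (0.0394).

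**Figure D3:**
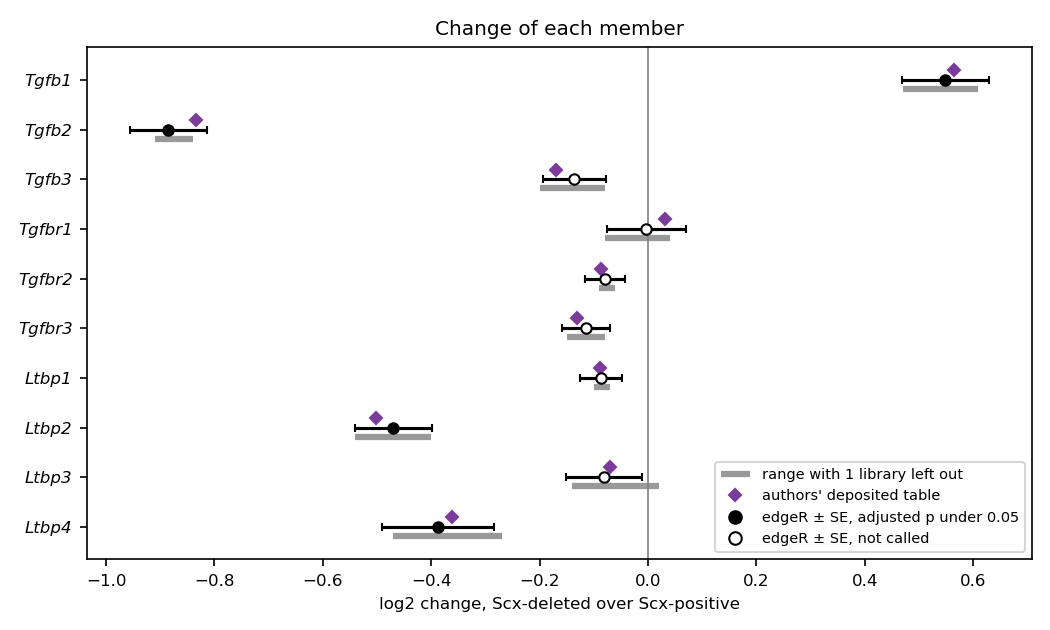
Log2 change of each gene, Scx-deleted over Scx-positive (x axis), by edgeR with its SE (circles, filled where the adjusted p was under 0.05), the range of that change when each library was left out in turn (grey bars), and the log2 fold change in the authors' deposited table (diamonds). Tgfb1 lies at 0.55 and Tgfb2 at -0.89, and the grey bars of the 4 called genes stay on 1 side of 0.

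Genes that process, store or release latent TGF-beta went both ways: of 25 tested, 5 were called as higher and 7 as lower, with a median log2 change of 0.01, beside 14.0% and 14.5% of all tested genes. Those that rose were Igf2r, the mannose 6-phosphate receptor that binds the latent complex, at 0.34 ± 0.04 (SE), the gelatinase gene Mmp2 at 0.36 ± 0.05, and Plaur, Mmp14 and Lrrc32. The last 3 were named after their values were seen. Lrrc32 encodes GARP, a membrane protein that holds latent TGF-beta on the cell surface, and stood at 913 ± 67.7 and 1053 ± 20.7 CPM (SD, n = 4 each). The protease gene Adamts1 went from 881 ± 66.3 to 612 ± 45.4 CPM, and Plau, the urokinase gene, changed by -0.36 ± 0.04 (SE). The others called as lower were Fbn1 at -0.32 ± 0.05 (SE), Emilin1, Tgm2, Pcsk6 and Bmp1, also named after their values were seen. The integrin genes of activation were level: Itgav had a log2 difference of 0.02 ± 0.04 and Itgb8 of 0.02 ± 0.09 (SE), neither of which passed the test.

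Among extracellular modulators and co-receptors, 6 of 16 tested genes were called as lower and 2 as higher, with a median log2 change of -0.06, beside 14.5% lower and 14.0% higher of all tested genes. Aspn, the gene of asporin, a small proteoglycan that binds TGF-beta, was at 18.6 to 23.8 CPM with Scx and at 4.54 to 5.40 CPM without it. No Scx-deleted library came near the Scx-positive range. Dcn, whose product decorin also binds TGF-beta, changed by -1.01 ± 0.09 (SE) on the log2 scale. The neuropilin genes, whose products bind TGF-beta among other ligands, moved in opposite directions, Nrp2 from 492 ± 11.0 to 706 ± 27.5 CPM and Nrp1 from 365 ± 8.73 to 255 ± 15.8 CPM (SD, n = 4 each). The other gene that rose was Cd109, a co-receptor that restrains signalling, at 0.31 ± 0.05 (SE), named after its value was seen. The others called as lower were Cilp at -1.47 ± 0.16, Fmod at -1.08 ± 0.11 and Htra3 at -0.97 ± 0.14 (SE), named in the same way. Dcn and Fmod are also among the tendon markers whose summed level was lower in the Scx-deleted libraries.

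Of 30 genes for Smads and regulators of receptor signalling, 7 were called as higher and 6 as lower, with a median log2 change of 0.03, beside 14.0% and 14.5% of all tested genes. Smad2, whose product the receptor phosphorylates, rose by 0.16 ± 0.05 (SE; adjusted p = 0.0193), a call lost without Scx-positive replicate 2 (adjusted p = 0.0556) or Scx-deleted replicate 3 (0.0678) or 5 (0.0624). Smad3, the other receptor-activated Smad gene, at 183 ± 7.91 and 185 ± 1.76 CPM and the common-partner gene Smad4 at 126 ± 2.43 and 121 ± 2.21 CPM (SD, n = 4 each) did not pass the test. Smad7, the inhibitory Smad that TGF-beta induces, was at 75.8 ± 3.13 and 80.8 ± 2.01 CPM and was not called. The largest rise among the genes named from this list was in Tgif1, a Smad corepressor, from 51.2 ± 2.14 to 77.1 ± 4.46 CPM. The ubiquitin ligase genes Nedd4l and Smurf1, whose products limit TGF-beta signalling, rose by 0.36 ± 0.05 and 0.27 ± 0.04 (SE), and the endocytic adaptor gene Dab2 changed by -0.30 ± 0.04.

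Genes known to respond to TGF-beta did not move in a single direction. Of 33 tested, 11 were called as lower and 6 as higher, with a median log2 change of -0.03, beside 14.5% and 14.0% of all tested genes. Tnc, the tenascin C gene, rose by 0.63 ± 0.05 and the chromatin factor gene Hmga2 by 0.59 ± 0.05. Ctgf, a standard readout of TGF-beta, was level at 999.6 ± 40.6 and 995 ± 27.6 CPM (SD, n = 4 each). The matrix genes Col3a1 and Loxl2 changed by -1.14 ± 0.07 and -0.45 ± 0.04 (SE). Scx-positive library 5 had the most Col3a1, 1914 CPM, and the rest of its group had 1495 to 1534 CPM.

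**Figure D4:**
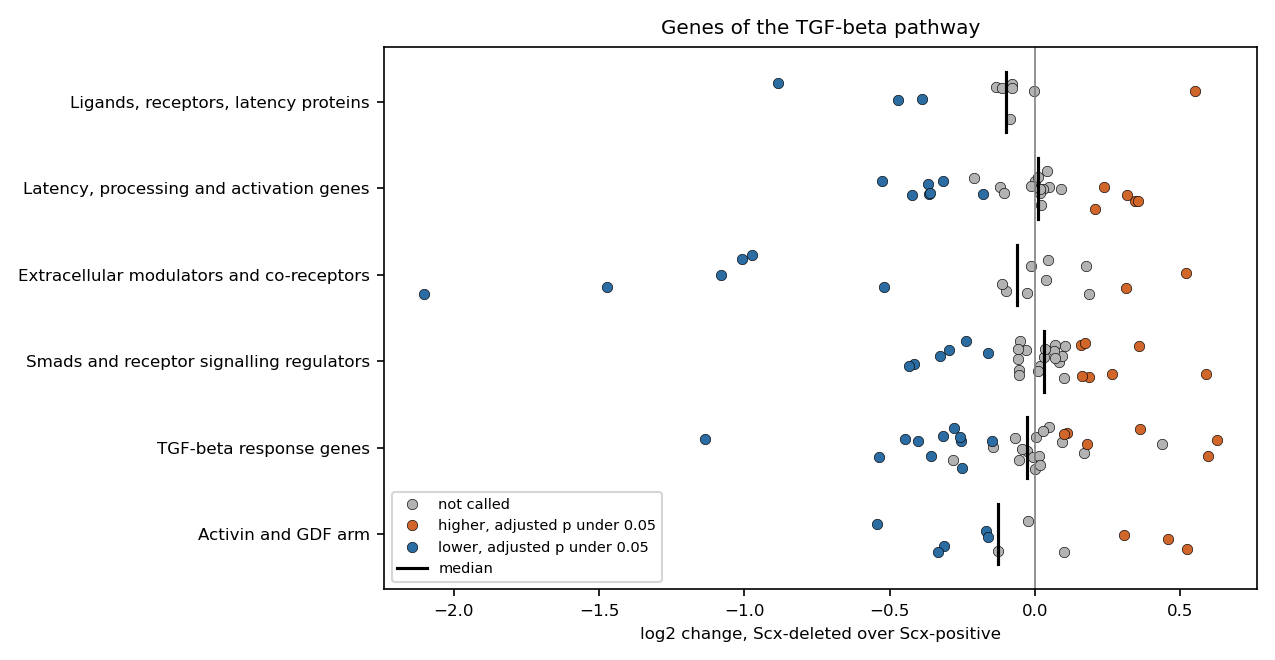
Log2 change, Scx-deleted over Scx-positive (x axis), of each tested gene in 6 groups of the TGF-beta pathway, coloured by call at an adjusted p under 0.05 (edgeR), with the median of each group as a black line (vertical scatter has no meaning). Called genes lie on both sides of 0 in every group, and all 6 medians lie between -0.13 and 0.03.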

How the data were processed

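The submitters' processing notes list STAR, FastQC, DESeq2 and the build mm10. What each tool did, its version, how reads were counted, on which annotation and whether by strand is not given in the sources used here. The authors deposited raw counts, 1 row per gene symbol. The rows for reads in no feature and for ambiguous reads took 7.44% to 8.67% and 0.490% to 0.567% of the counts in a library and were left out. The authors' deposited comparison table holds, per the file headers, mean normalized counts (a signal), log2 fold changes, a standard error and a statistic (scores), and p-values with adjusted values. It was used only where named. Its columns of group means were not used. Its sign was read from Scx and from the fit, which shared the sign in 91.8% of 13110 genes.

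Counts were tested with edgeR 4.0.16 in R 4.3.3. Genes passed filterByExpr (minimum count of 10, total of 15), TMM factors scaled the libraries, and a quasi-likelihood fit of all 13125 genes with group as its term gave log2 changes, adjusted by Benjamini-Hochberg over all of them. Dividing a log2 change by the root of its F statistic gave the SE. Lengths, positions and exons are from GENCODE M21 on GRCm38 (98.0% of symbols matched). Levels per kilobase divide CPM by the union of annotated exons. No 2 libraries of a group agreed within counting noise (chi-square over its degrees of freedom of 2.43 or more), so each counted as 1 replicate. Scx-positive library 5 stood apart from its group, at 11.64, 13.37 and 12.35 against libraries 2, 3 and 6. All other pairs within a group had 2.43 to 4.54. The labels name no separate animals or cultures behind the libraries. The p-values therefore measure only how far these libraries scatter, which may be technical.

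The members and lists were chosen with earlier results of these data known. Named were all 10 genes, Scx, up to 4 called genes with the smallest p of each list, and Ctgf, Smad7, Smad2, Smad3, Smad4, Itgav and Itgb8. Some genes that this rule or the annotation brings in are not reported here. The fits were repeated with upper-quartile and RLE scaling, without a filter and with 5 CPM in 4 libraries, DESeq2 1.42.0, limma-voom (limma 3.58.1), numbers 2, 3 and 5 with and without a replicate block, adjusted p of 0.01 and 0.1, each library left out, 2 other gene lengths and, added after the data were seen, a loess offset for GC content and transcript length.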

Additional observations from a re-analysis of the deposited data

Results flagged for a closer look

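In groups of 4, the sample farthest out was compared with the other 3 for the genes that the naming rule above brings in. It stood clear of them (a gap above 0.829 of the group's range) in 4 of 78 groups, where chance gives about 1 in 20. Ltbp2 was at 419 CPM in Scx-deleted library 2 against 344 to 355 CPM in the others. Nrp2 was at 665 CPM in Scx-deleted library 2 against 714 to 724 CPM. Smad4 was at 122 CPM in Scx-positive library 3 against 127 to 128 CPM. Col3a1 was at 1914 CPM in Scx-positive library 5 against 1495 to 1534 CPM.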

How the results depend on the processing

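Tgfb1, Tgfb2, Ltbp2 and Ltbp4 kept their direction and their call in all 17 refits, with ranges of 0.47 to 0.61, -0.91 to -0.84, -0.54 to -0.38 and -0.47 to -0.24. At an adjusted p under 0.01 Ltbp4 was no longer called. Of the 10 genes, 6 were lower with upper-quartile scaling (Tgfbr2, Tgfbr3 and Ltbp1 added, while over all genes 2288 were lower and 1539 higher, against 1902 and 1842), 5 at an adjusted p under 0.1 (Tgfb3 and Tgfbr3 added) and 3 to 5 with a library left out (5 without Scx-positive replicate 6). Whether the numbers 2, 3 and 5 pair the libraries is not settled here. Correlations of deviations were -0.083, 0.234 and 0.114 between libraries that share a number. They were -0.338 to 0.229 between libraries of unlike numbers. With these numbers and the replicate block 5 genes were lower (Tgfb3 and Tgfbr3 added to 3), and 4 without the block. Across all genes 1191 were higher and 1143 lower at an adjusted p under 0.01, and 2769 were higher and 2169 lower with the GC and length offset. Without Scx-positive replicate 5, 2409 were higher and 2310 lower, the most with any library left out. With numbers 2, 3 and 5, 1289 were higher and 1239 lower with no block, and 1585 were higher and 1616 lower with it. Response genes called as higher, 6 in the main fit, numbered 3 with those numbers and no block and 4 with the block. They also numbered 4 with upper-quartile scaling, with no filter and at an adjusted p under 0.01. With a library left out they numbered 4 to 8. In the activin list 3 were lower with DESeq2, 3 with those numbers and no block, 2 at an adjusted p under 0.01, and 2 to 5 with a library left out (2 when Scx-deleted replicate 4 or 5 or Scx-positive replicate 2 was left out, 3 for Scx-deleted replicate 3 or Scx-positive replicate 6). The cause of these shifts was not tested, other than the stricter or looser threshold. Only genes that were not called changed sign. Tgfbr1 was at 0.0563 with numbers 2, 3 and 5 and the replicate block, 0.0630 without the block, 0.0584 with the GC and length offset, and -0.0772 to 0.0388 with a library left out. Ltbp3 was at 0.0037 with that offset and -0.1362 to 0.0179 with a library left out. With upper-quartile scaling Itgav was at -0.0028, Itgb8 at -0.0051 and Smad3 at -0.0131, and Ctgf was at 0.0092 with the block and 0.0087 without it. With a library left out these ranged from -0.0041 to 0.0432, -0.0275 to 0.0594, -0.0153 to 0.0323 and -0.0274 to 0.0173, in that order. At these depths Tgfb2 had 189 to 475 counts per library, Ltbp4 363 to 792, and Tgfbr2 4469 to 6931, so counting error weighs most on the low tier.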

Other observations

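Activins and the product of Gdf11 signal through the same Smad2 and Smad3 as TGF-beta. Of 11 tested genes of the activin and GDF list, 3 were called as higher (Inhbb, Gdf11 and Gdf15), beside 14.0% of all tested genes. Another 5 were called as lower (Fstl1, Acvr2a, Fst, Fstl3 and Inha), beside 14.5% of all tested genes. The median log2 change of the list was -0.13. Gdf15, Fst, Fstl3 and Inha were named after their values were seen. Inhbb, which encodes an activin subunit, was at 54.1, 55.5, 71.4 and 52.0 CPM in Scx-positive and 78.3, 74.8, 85.4 and 81.7 CPM in Scx-deleted libraries, a log2 change of 0.46 ± 0.08 (SE). The groups did not overlap, and Scx-positive library 5 came nearest to the Scx-deleted range. Gdf11 rose by 0.31 ± 0.06 (SE). The activin type II receptor gene Acvr2a went from 37.4 ± 1.17 to 30.1 ± 2.26 CPM, and Fstl1, a follistatin-like secreted protein, from 2112 ± 61.0 to 1678 ± 36.6 CPM (SD, n = 4 each). The follistatin genes Fst and Fstl3, whose products trap activin, changed by -0.17 ± 0.05 and -0.16 ± 0.06 (SE). Both had overlapping groups and an adjusted p close to the threshold (edgeR, 0.0222 and 0.0487). Inha was low, at 2.50 ± 0.473 and 1.75 ± 0.455 CPM (SD, n = 4 each), with overlapping groups and an adjusted p of 0.0494 (edgeR). The groups also overlapped for Gdf15, at 12.9 ± 2.87 and 18.6 ± 2.84 CPM (SD, n = 4 each).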
